A study of Rattus rattus with 18 samples.

Results

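The rat microRNA miR-568 was measured by 1 probe, rno-miR-568, which was spotted 4 times on each array, and it is described here in 9 rats. It is 1 of the 761 miRNA probes on the array and 1 of the 532 that were detected on at least 3 of the 18 arrays and therefore tested. The probe was chosen by its readout, the normalized levels per group: of the 532 miRNAs it had the lowest value in tMCAO relative to sham rats, and it was high in the PostC rats. The differences of miR-568 between these groups are therefore given as a description, with no test. The animals were male Sprague Dawley rats: 3 sham-operated rats, 3 rats with transient middle cerebral artery occlusion (tMCAO), in which a filament closes the artery and is later withdrawn, and 3 rats labelled remote limb postconditioning (PostC), in which brief interruptions of the blood flow to a limb are applied. Neither the labels nor the paper's text state whether the artery of the PostC rats was occluded too, so the treatment of that group is known only in part. From each rat a core array and a peri array were made, which gives 6 groups of 3 arrays. The sample labels place the core in the temporo-parietal cortex and the peri region in the striatum whereas the paper's text has them the other way round, so the regions are named core and peri only. The labels give the species as Rattus rattus although Sprague Dawley is a strain of Rattus norvegicus, and the paper names more than 1 time of sacrifice after reperfusion without saying which applies to the arrays. The age of the rats is likewise not given in the labels.

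miRNAs are short RNAs that are cut from a hairpin precursor and loaded into an Argonaute protein, where the bases near their 5′ end, the seed, pair with messenger RNAs and lower their translation or stability. miRNAs with the same seed can share targets. In humans the miR-568 gene lies within the gene ZBTB20, which encodes a zinc finger repressor of transcription. After a stroke, tissue levels of miRNAs can change through altered transcription or turnover and through loss or entry of cells.

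The sequences were taken from the target sequences in the array files and are written 5′ to 3′. The mature miR-568 is shown first because its composition sets it apart on the array, with the seed, bases 2 to 8, in capitals, then with both copies of an internal repeat in capitals, then with a run in capitals that equals its own reverse complement.
miR-568, seed: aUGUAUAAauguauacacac
miR-568, repeat: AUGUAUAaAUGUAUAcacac
miR-568, self-complementary run: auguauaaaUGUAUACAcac
The 20 bases of miR-568 held 9 A, 6 U, 2 G and 3 C, a GC content of 25%. The median GC content of the tested miRNAs was 50%, and their range was 23.8 to 83.3%. Only 1 tested miRNA, miR-369-3p, had a lower GC content than miR-568. The 7-base repeat spanned bases 1 to 7 and 9 to 15, and a repeat at least as long was found in 14 of the 761 probe targets (1.84%). The self-complementary run of 8 bases spanned positions 10 to 17, and 43 probe targets (5.65%) held one at least as long. No other probe target on the array shared the seed of miR-568, whether read as bases 2 to 8 or as bases 2 to 7.

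The 3 probe targets with the longest run of bases in common with miR-568 are shown because RNA of such miRNAs is the closest in sequence to the target of the probe. Each shared 8 bases with it, in capitals, which are bases 13 to 20 of miR-568.
miR-568: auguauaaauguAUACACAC
miR-466b-2-3p: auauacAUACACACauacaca
miR-466b-3p: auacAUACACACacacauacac
miR-466c-3p: uauacaugcacacAUACACAC
All 3 belong to the miR-466 family, whose members are rich in CA repeats, and all 3 were detected on 18 of 18 arrays. miR-466b-2-3p differed by -0.50 on the log2 scale between tMCAO and sham rats, miR-466b-3p by 0.23 and miR-466c-3p by -0.18. PostC minus tMCAO was 0.84, 0.06 and 0.48 for the 3 in that order. On the peri array of PostC rat 3 they differed from the mean of the other PostC peri arrays by -1.49 (miR-466b-2-3p), -1.09 (miR-466b-3p) and -1.27 (miR-466c-3p). A further 6 probe targets shared 7 bases with miR-568. Binding of other RNAs to the miR-568 probe was not tested.

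The arrays carried a single dye, Cy5. Between 188 and 605 miRNAs were detected per array, and the correlation of arrays of the same group over the tested miRNAs was between 0.831 and 0.985. No pair of arrays held identical values. By the median correlation with each of the 6 groups, 6 of 6 tMCAO arrays, 2 of 6 sham arrays and 0 of 6 PostC arrays were closest to their own group. For the PostC arrays the median correlation with the other arrays of the group was 0.879, 0.898 and 0.850 for the core of rats 1, 2 and 3 and 0.938, 0.936 and 0.896 for the peri region. The peri array of rat 3 correlated at 0.961 with the tMCAO peri arrays and had the lowest number of detected miRNAs, 188. The level of miR-568 and its differences between groups are given with and without that array, and the ranges of the differences by region also with each array left out in turn. The tissue was checked with miRNAs of brain cells, and all 6 neuronal miRNAs examined, among them miR-124-3p, were detected in every group, 5 of them on all 18 arrays. The arrays hold bulk tissue, so fewer cells that contain a miRNA and less of it per cell cannot be told apart. The labels and files give no slide, scan or batch.

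miR-568 was bright on every sham array, dim on every tMCAO array and bright on 5 of the 6 PostC arrays. An array was said to detect a miRNA when the median of its 4 spots lay over 3 scaled median absolute deviations above the median of the 612 spots left empty. By that limit miR-568 was detected on 16 of 18 arrays, 6 of 6 from sham rats, 4 of 6 from tMCAO rats and 6 of 6 from PostC rats. The 2 arrays without detection were the core and the peri array of tMCAO rat 2.

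Before normalization, the median spot of miR-568 read 3416, 4093 and 3261 units in the core of sham rats 1, 2 and 3. In the peri region of the same rats it read 5466, 6519 and 6602 units. These readings lay 21.2 to 70.0 times above the detection limit of the array, and no sham array came near the level of its empty spots. In the core of tMCAO rats 1, 2 and 3 the median spot read 383, 90.3 and 448 units against limits of 77.4, 113 and 240.0 units. In their peri region it read 84.4, 300.2 and 892 units against limits of 80.9, 346 and 338 units. Thus the tMCAO readings ran from 0.798 to 4.95 times the limit, and every tMCAO reading was below every sham reading. In PostC rats the core read 5511, 8276 and 14718 units and the peri region 4590, 6556 and 483 units. The last of these, from the array that stood apart, was 1.47 times its limit of 329 units, whereas the other 5 PostC readings were 14.6 to 177 times the limit. Within PostC rat 3 the core thus had the highest reading of all 18 arrays and the peri region a reading inside the tMCAO range. The core array of that rat also had the highest number of detected miRNAs, 605.

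**Figure D1:**
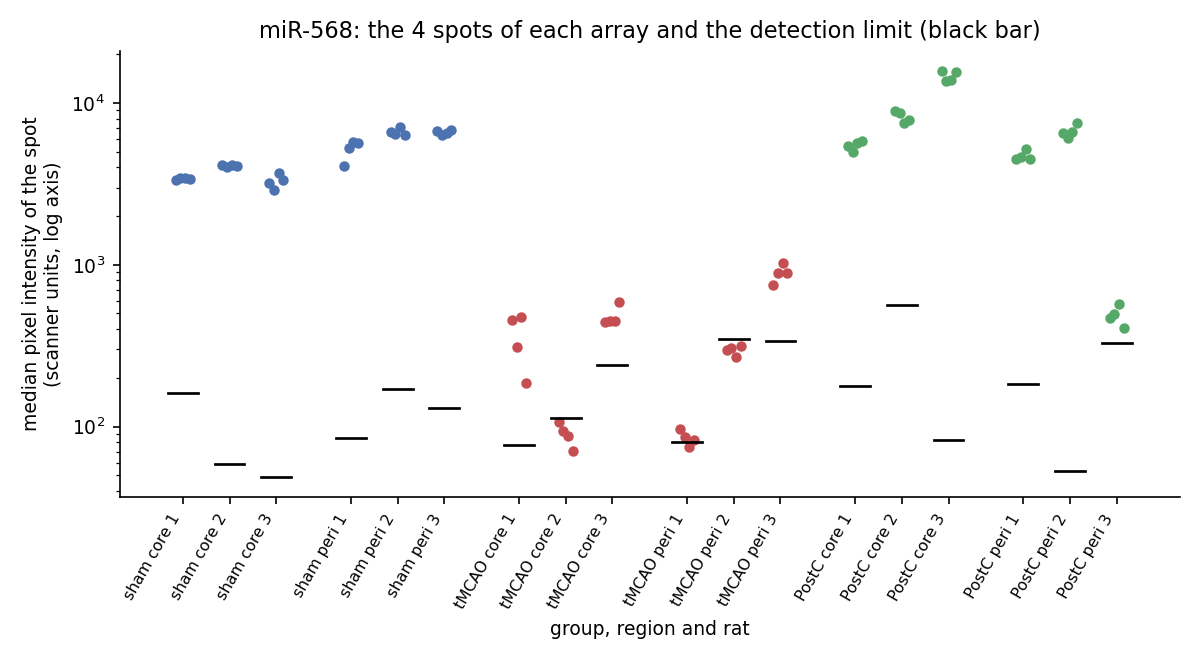
Median pixel intensity of each of the 4 miR-568 spots (y axis, scanner units, log scale) on the 18 arrays (x axis: group, region and rat), with the detection limit of each array as a black bar. Spots of the sham arrays lie far above the bars, spots of tMCAO rat 2 lie below them, and the peri array of PostC rat 3 lies just above its bar.

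The 4 spots of an array gave close readings on most arrays. The SD of their log2 intensities had a median of 0.120 over the 18 arrays, and the brightest spot was at the median 1.21 times the dimmest. The tightest were the core arrays of sham rats 1 and 2, whose SDs were 0.0197 and 0.0200. The widest was the core array of tMCAO rat 1, with an SD of 0.632, where the spots read 457, 310, 476 and 185 units. In tMCAO rat 3 the core spots read 441, 447, 449 and 585 units, and in the peri region of PostC rat 3 they read 469, 498, 571 and 406 units. So on these dim arrays no single spot set the low reading. Compared with the 100 probes of nearest brightness on the same array, the SD of miR-568 was below their median on 8 of 18 arrays. The spots sat in row 45 at columns 9, 19 and 29 and in row 101 at column 19, and the median log2 deviation of a position from the mean of its array was between -0.016 and 0.009.

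After background correction and normalization, the log2 level of miR-568 was 11.59, 11.97 and 11.44 in the core of sham rats 1, 2 and 3, with a mean of 11.66 ± 0.27 (SD, n = 3). In their peri region it was 11.98, 12.08 and 12.23, with a mean of 12.10 ± 0.13 (SD, n = 3). The sham values spanned less than 1 log2 unit. In the core of tMCAO rats it was 8.69, 6.85 and 8.94, with a mean of 8.16 ± 1.14 (SD, n = 3). In the peri region of tMCAO rats it was 8.23, 8.49 and 10.43, with a mean of 9.05 ± 1.20 (SD, n = 3). The highest tMCAO value, the peri region of rat 3, was still below the lowest sham value. In the core of PostC rats it was 13.27, 12.08 and 12.72, with a mean of 12.69 ± 0.59 (SD, n = 3). In the peri region of PostC rats it was 12.34, 12.47 and 9.34, with a mean of 11.38 ± 1.77 (SD, n = 3). Without the array of rat 3 the PostC peri mean was 12.40 ± 0.09 (SD, n = 2).

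From the lowest to the highest mean, the order was tMCAO core, tMCAO peri, PostC peri, sham core, sham peri and PostC core. All neighbours in this order overlapped in their rats except sham core and sham peri, which were separated by 0.01 on the log2 scale, and 5.83% of the tested miRNAs were lower in sham core than in sham peri without overlap. The table of normalized intensities that the authors deposited, on a linear scale, gave 3029 ± 465 in sham core, 4361 ± 352 in sham peri, 307 ± 236 in tMCAO core, 543 ± 596 in tMCAO peri, 6325 ± 1616 in PostC core and 3765 ± 2836 in PostC peri (SD, n = 3 each). In that table PostC peri lay above sham core, the reverse of the log2 means, and the other groups kept their order.

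**Figure D2:**
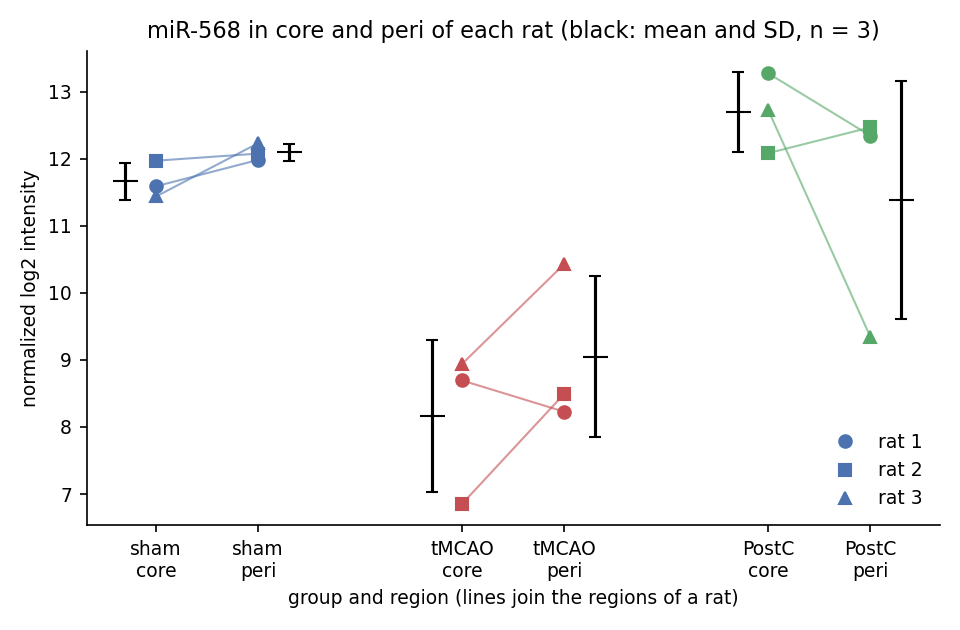
Normalized log2 intensity of miR-568 (y axis) in core and peri (x axis) of the 9 rats, with a line joining the regions of each rat and black bars giving mean and SD over the 3 rats of a group. The tMCAO rats lie below all sham rats, and the 2 regions of PostC rat 3 differ by 3.38.

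Averaged over both regions of a rat, miR-568 was 11.78, 12.02 and 11.83 in sham rats and 8.46, 7.67 and 9.69 in tMCAO rats. The group means, 11.88 ± 0.13 and 8.61 ± 1.01 (SD, n = 3 each), differed by -3.27 with a standard error of 0.59, which is 9.67-fold lower in tMCAO. The size of this fold depends on how dim spots are treated, since both arrays of tMCAO rat 2 were under the detection limit and the peri array of tMCAO rat 1 was 1.04 times it, and with plain subtraction of the background the difference was -3.88. The groups did not overlap. This comparison chose the probe, and of all 532 tested miRNAs 23.3% were lower in tMCAO with no overlap of the rats. The difference was -3.50 in core (SE 0.68), 11.3-fold lower, and -3.05 in peri (SE 0.70), 8.26-fold lower. It lay between -3.89 and -2.85 in core with each array left out, and between -3.74 and -2.63 in peri. Without the array of tMCAO rat 2 the fold in core was 7.20, and without that of tMCAO rat 3 the fold in peri was 13.3. The groups did not overlap in either region, where 24.2% of the tested miRNAs in core and 16% in peri were lower without overlap. In core miR-568 had the second lowest difference of the 532 miRNAs and in peri the lowest. The miRNAs with the next lowest differences in the rat means were miR-29b-3p, a miRNA known to target collagen transcripts, at -2.44 and miR-181c-5p, of the brain-expressed miR-181 family, at -2.29.

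Averaged in the same way, miR-568 in PostC rats was 12.81, 12.27 and 11.03, with a mean of 12.04 ± 0.91 (SD, n = 3). It was higher than in tMCAO rats by 3.43 (SE 0.79), 10.8-fold, with no overlap of the rats, and 18.6% of the tested miRNAs were higher in PostC without overlap. This fold too depends on the dim tMCAO spots, and with plain subtraction the difference was 4.14. No other tested miRNA had a higher difference between these groups. For comparison, PostC minus tMCAO was 1.04 for miR-29b-3p and 1.15 for miR-181c-5p. PostC minus sham was -1.40 and -1.14 for them. miR-568 in PostC differed from sham by 0.16 (SE 0.53), and the rats of these groups overlapped, while 10.7% of the tested miRNAs were higher in PostC without overlap. The comparisons share groups: the same tMCAO rats enter the first and the second, so the size of one bears on the size of the other.

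By region, PostC minus tMCAO was 4.53 in core (SE 0.74), 23.1-fold, where the rats did not overlap, as for 12% of the tested miRNAs, and with each array left out it lay between 3.87 and 4.92. The lowest of these, 14.7-fold, was without tMCAO rat 2. It was 2.33 in peri (SE 1.23), 5.04-fold, where the rats overlapped, and 3.2% of the tested miRNAs were higher in PostC there without overlap. Without the peri array of PostC rat 3 it was 3.35, 10.2-fold and without overlap, as for 26.7% of the tested miRNAs. Without that of tMCAO rat 3 it was 3.02, 8.13-fold. Without each of the other 4 arrays it lay between 1.79 and 2.06, with overlap, the lowest, 3.46-fold, without PostC rat 2. PostC minus sham was 1.03 in core (SE 0.38), 2.04-fold and without overlap, and 10.9% of the tested miRNAs were higher without overlap in that comparison. With each array left out it lay between 0.74 and 1.33. It was -0.71 in peri (SE 1.02), with overlap, and 1.69% of the tested miRNAs were lower there without overlap. Its direction rested on PostC rat 3: without that peri array the difference was 0.31, with PostC higher and no overlap, as for 14.5% of the tested miRNAs. Without PostC rat 1 it was -1.19 and without PostC rat 2 -1.25, both with overlap, and without each sham rat it lay between -0.77 and -0.64. Without the peri array of rat 3, whose core array then stood alone for that rat, the rat means gave 3.99 for PostC minus tMCAO and 0.72 for PostC minus sham.

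The cell type miRNAs moved as follows beside these differences. Of 6 neuronal miRNAs 2 had a higher and 4 a lower mean in tMCAO than in sham, and their summed log2 level ran from 16.3 to 16.4 in sham rats, 16.0 to 16.3 in tMCAO rats and 16.1 to 16.2 in PostC rats. The sum is set by the brightest probes. The median tMCAO minus sham difference of the 6 was -0.61, and the lowest were miR-218a-5p at -2.23, miR-137-3p at -1.61 and miR-9a-5p at -1.20. PostC minus tMCAO was 1.48, 0.44 and 0.85 for these in that order. It was 0.05 for miR-124-3p, -0.24 for miR-128-3p and -0.26 for miR-138-5p. Of 3 oligodendrocyte miRNAs 2 were lower in tMCAO and 1 higher, with summed levels of 11.6 to 13.1 in sham, 11.5 to 12.1 in tMCAO and 11.3 to 12.1 in PostC rats. Of these, miR-338-3p was at -2.08 in tMCAO minus sham, miR-219a-5p, which was detected on no tMCAO array, at -1.23, and miR-219a-2-3p at 0.10. Their PostC minus tMCAO differences were 0.95, 0.41 and -0.14 in that order. Both endothelial miRNAs were lower in tMCAO, with summed levels of 12.8 to 13.5 in sham, 12.1 to 12.8 in tMCAO and 12.5 to 13.3 in PostC rats, and miR-126a-5p was detected on no tMCAO array. Of 5 leukocyte miRNAs tested, 4 were higher in tMCAO, and the summed level of all 6 ran from 11.7 to 11.9 in sham, 12.3 to 12.9 in tMCAO and 12.3 to 12.4 in PostC rats. The other tested one, miR-142-5p, was at -0.28 and was detected on 3 sham, 0 tMCAO and 2 PostC arrays. Of these 6, miR-142-3p was also detected on no tMCAO and on no PostC array. Of the 4 that were higher, miR-150-5p and miR-146a-5p were detected on every array. The other higher ones were near the detection limit: miR-223-3p was detected on 1 sham, 2 tMCAO and 1 PostC array, and miR-155-5p on 0, 2 and 1. Of 3 red blood cell miRNAs only miR-451-5p was detected, and the summed levels were 10.9 to 11.4, 10.9 to 11.6 and 10.2 to 11.6 in sham, tMCAO and PostC rats. The part of cell composition in the differences of miR-568 was not tested.

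miR-568 was chosen for its differences between groups and not for a difference between regions, but earlier results of these data were known by then. The region tests are therefore not fully independent of the choice. Differences between the regions were tested with limma over all 532 miRNAs, with the difference within each rat as the unit. In sham rats miR-568 was lower in core than in peri in 3 of 3 rats, by -0.39, -0.11 and -0.80. The mean was -0.43 (SE 0.63, 95% interval -1.86 to 1.00, adjusted p = 0.972). That SE comes from a variance pooled over all 9 rats, so it does not give the spread of the sham rats alone. The SD of core minus peri was 0.35 in sham rats (n = 3), smaller than in the tMCAO and PostC rats described below. No tested miRNA passed the threshold in that comparison (0%), 29 (5.45%) had an unadjusted p under 0.05, and 20.3% of the tested miRNAs were lower in core in all 3 sham rats. Core minus peri of miR-568 was 0.47, -1.64 and -1.49 in tMCAO rats, a mean of -0.89 ± 1.17 (SD, n = 3). In PostC rats it was 0.93, -0.38 and 3.38, a mean of 1.31 ± 1.91 (SD, n = 3). Thus miR-568 was lower in core than in peri in 6 of 9 rats, and the size differed widely between rats.

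Over all 9 rats core minus peri was 0.00 (SE 0.37, 95% interval -0.83 to 0.82), with an adjusted p of 0.999 in limma. In the same comparison 4 of the 532 miRNAs passed (0.752%), miR-149-3p, miR-3473, miR-6215 and miR-762, all higher in core, and 39 (7.33%) had an unadjusted p under 0.05. Without sham rat 1, tMCAO rat 2, tMCAO rat 3 or PostC rat 1, 0 passed. The difference of tMCAO and sham in core, minus that in peri, was -0.46 for miR-568 (SE 0.90, 95% interval -2.48 to 1.57, adjusted p = 0.944). The difference of PostC and sham in core, minus that in peri, was 1.74 (SE 0.90, 95% interval -0.29 to 3.76, adjusted p = 0.476), and without PostC rat 3 it was 0.70. No tested miRNA passed in either of these comparisons by limma (0%), where 46 (8.65%) and 56 (10.5%) had an unadjusted p under 0.05, but 10 passed for PostC without PostC rat 2 and 2 without PostC rat 3. The intervals for these comparisons of changes span about 4 log2 units, so their size was poorly resolved with 3 rats a group.

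The rats of a group varied in miR-568 more than in most other miRNAs, except for the sham rats. The SD of the rat means was 0.126 in sham rats against a median of 0.238 over the tested miRNAs, and 20.7% of these had a smaller SD. In tMCAO rats the SD of miR-568 was 1.01 against a median of 0.173, and 99.2% had a smaller one. In PostC rats it was 0.910 against 0.259, and 98.1% had a smaller one. Among the tMCAO rats the highest was rat 3, at 9.69, and the lowest rat 2, at 7.67, on whose arrays miR-568 was not detected. Among the PostC rats the lowest was rat 3, at 11.03, whose core and peri arrays lay far apart.

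The 5 tested miRNAs whose rat means over the 9 rats were most alike to those of miR-568 were miR-210-5p, miR-3574, miR-3591, miR-758-5p and miR-320-5p. Pearson's r was 0.963, 0.956, 0.938, 0.938 and 0.935 in that order, and Spearman's rho was 0.967, 0.967, 0.933, 0.867 and 0.933. Without PostC rat 3 the Pearson values were 0.963, 0.957, 0.944, 0.945 and 0.935. The points are the same 9 rats, normalized together and lying in 3 groups, so these values describe a likeness and carry no p. Of the other 531 tested miRNAs 10 had r above 0.9 and 27 above 0.8, and the median r was 0.004.

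Their sequences are shown beside miR-568 because none had its seed, which is in capitals here.
miR-210-5p: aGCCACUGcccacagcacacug
miR-3574: uCAGCCGCugucacacgcacag
miR-3591: aACACCAUugucacacucca
miR-758-5p: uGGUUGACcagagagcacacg
miR-320-5p: gCCUUCUCuucccgguucuucc
The seeds of these 5 also differed from each other, and their GC contents, 63.6, 63.6, 45, 57.1 and 59.1%, were all above that of miR-568. miR-210-5p comes from the hairpin of miR-210, which is induced by hypoxia, and miR-3591 is read from the strand opposite to miR-122. The other arm of the miR-210 hairpin, miR-210-3p, differed by 0.18 between tMCAO and sham rats, against -1.46 for miR-210-5p.

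These 5 were chosen for their likeness, so their differences are no separate evidence of it. miR-210-5p, detected on 18 of 18 arrays, was 11.57 ± 0.12 in sham, 10.11 ± 0.33 in tMCAO and 11.95 ± 0.61 in PostC rats (SD, n = 3 each). miR-3574, detected on 17 arrays, was 10.34 ± 0.19, 9.04 ± 0.19 and 10.73 ± 0.52. miR-758-5p, detected on 15 arrays, was 9.88 ± 0.27, 8.53 ± 0.03 and 10.16 ± 0.35. Compared with miR-568, all 3 had a smaller difference between tMCAO and sham rats, -1.46, -1.30 and -1.35. miR-3591 differed by -1.78 and was detected on 12 arrays, 1 of them from a tMCAO rat, and miR-320-5p differed by -1.85 and was detected on 13 arrays, 2 of them from tMCAO rats. PostC minus tMCAO was between 1.63 and 2.27 for the 5 miRNAs, against 3.43 for miR-568. The peri array of PostC rat 3 was lower than those of PostC rats 1 and 2 for each of the 5. For miR-210-5p it read 10.14 against 11.90 and 12.04, and for miR-3574 it read 8.84 against 10.69 and 10.89. For miR-568 it differed by -3.06 from the mean of the other PostC peri arrays, the third lowest difference of 532 miRNAs, whose median was 0.00.

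**Figure D3:**
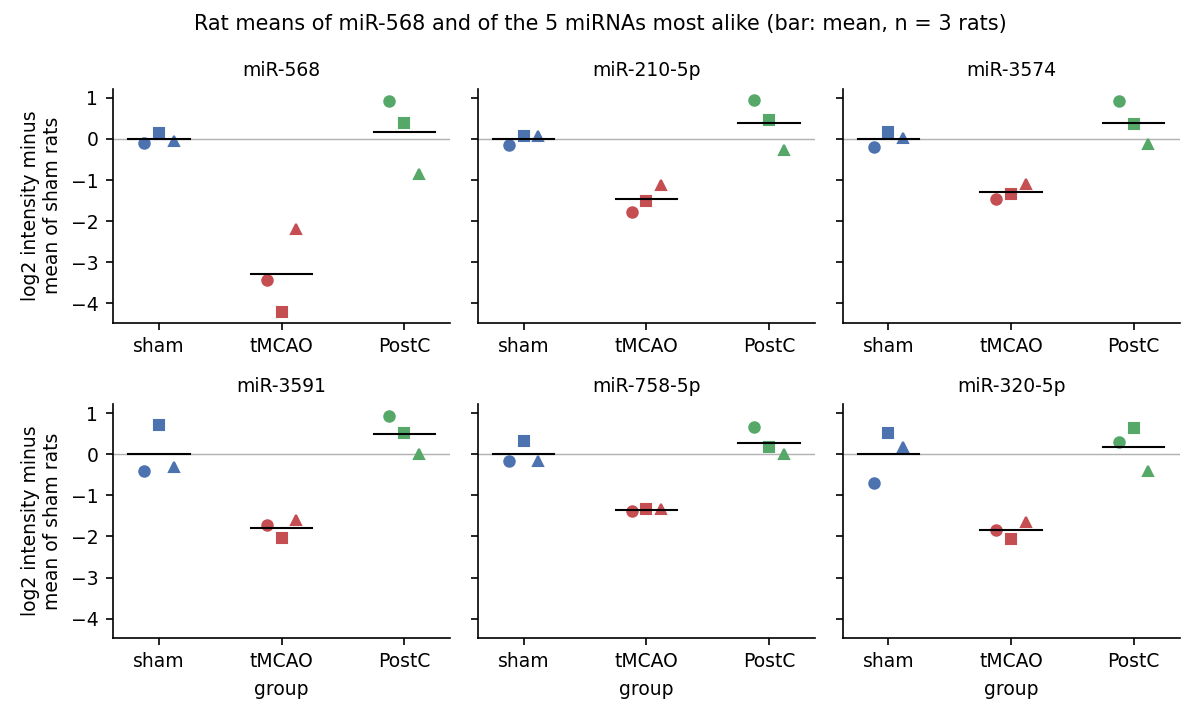
Rat means of miR-568 and of the 5 miRNAs most alike to it, each as log2 intensity minus the mean of the sham rats (y axis), by group (x axis), with points for the 3 rats and a bar for their mean. All 6 miRNAs are lowest in tMCAO, and the tMCAO values of miR-568 are lower and more spread than those of the other 5.

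A low GC content weakens the pairing of a target with its probe, so the miRNAs of lowest GC content were described as a list. The list held the 30 tested miRNAs with a GC content of at most 33.3%, miR-568 among them. Of the other 29, 27 were lower and 2 higher in tMCAO than in sham rats, with a median of -0.45 and a lowest value of -1.61. Over all tested miRNAs 279 were lower and 253 higher, with a median of -0.02. More of the 29 than of all tested miRNAs were thus lower in tMCAO, within the range of the other miRNAs, and miR-568 lay below all 29. In core the 29 had a median of -0.81, with 28 lower, where 284 of all 532 were lower with a median of -0.05. In peri they had a median of -0.13, with 18 lower and 11 higher, where 274 of all 532 were lower with a median of -0.01. miR-568 was lower than each of them in both regions, where the lowest of the 29 were -2.69 and -1.18. Across the 532 miRNAs the GC content had a Spearman correlation of 0.342 with the difference of tMCAO and sham in the rat means (0.390 for core, 0.119 for peri), given as a description across miRNAs measured on the same arrays.

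In PostC minus tMCAO, 23 of the 29 were higher and 6 lower, with a median of 0.22 and a highest value of 1.35, where 275 of all 532 were higher with a median of 0.02, and miR-568 again lay beyond all of them. In PostC minus sham 11 were higher and 18 lower, with a median of -0.11, where 298 of all 532 were higher with a median of 0.04, and miR-568 was higher than 23 of the 29. By region, in core 8 of the 29 were higher and 21 lower, with a median of -0.44, where 290 of all 532 were higher with a median of 0.06, and miR-568 was higher than 28 of them. In peri 20 were higher and 9 lower, with a median of 0.13, where 291 of all 532 were higher with a median of 0.03, and miR-568 was lower than all 29. That place rested on the peri array of PostC rat 3: without it 24 of the 29 were higher, with a median of 0.38, and miR-568, at 0.31, was higher than 11 of them and lower than 18. The tested miRNAs with the lowest GC content besides miR-568 were miR-369-3p, miR-190a-3p, miR-1b, miR-340-5p and miR-374-3p, and their tMCAO minus sham differences were -1.27, -0.41, -0.28, -0.93 and -0.27. They were detected on 10, 3, 7, 13 and 3 arrays, against 16 for miR-568. When the trend with GC content was removed from each array, miR-568 was -2.94 in tMCAO minus sham and 3.26 in PostC minus tMCAO. The part of base composition in the differences of miR-568 was not tested further.

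**Figure D4:**
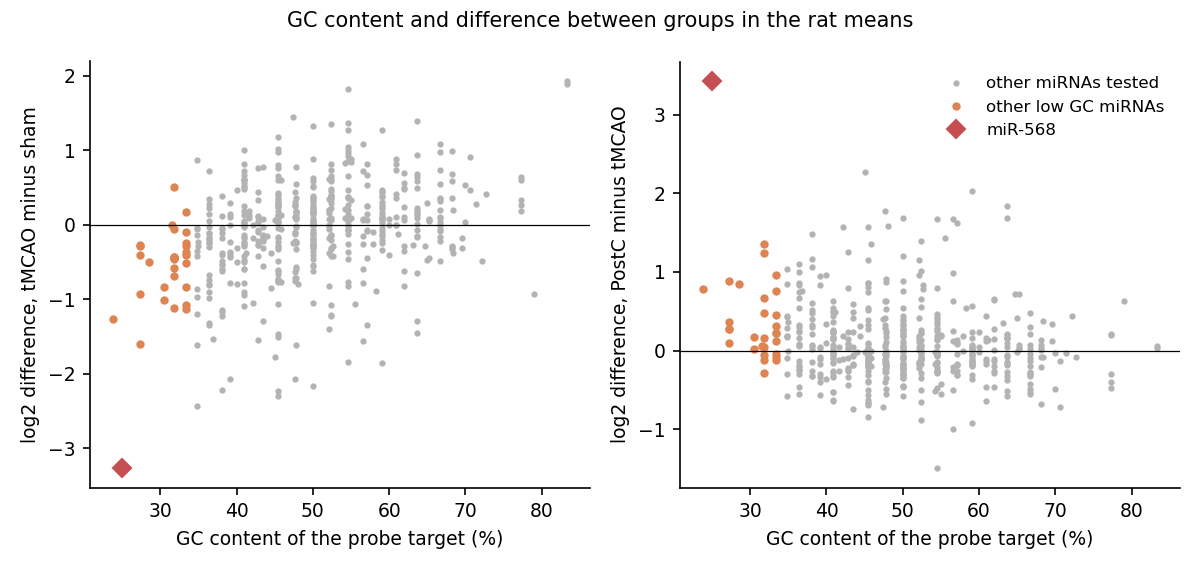
GC content of the probe target (x axis, %) against the log2 difference in the rat means (y axis), tMCAO minus sham on the left and PostC minus tMCAO on the right, for the 532 tested miRNAs. The low GC miRNAs other than miR-568 mostly lie below 0 on the left, and miR-568, at 25% GC, lies below all points on the left and above all points on the right.

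miR-568 kept its place under other ways of processing the arrays, with 1 exception. tMCAO minus sham was -3.28 with quantile normalization, -3.87 with scaling to the median of each array, -3.70 with the deposited normalized intensities and -3.27 with the median of the 4 spots. In all of these it was the lowest of the tested miRNAs. With plain subtraction of the background, which does not shrink the differences of dim spots, it was -3.88 and the fifth lowest. Scaling to the median moved the median of all tested miRNAs to -0.21. In the rat means of miR-568 the tMCAO rats did not overlap with the sham rats or with the PostC rats in any of these. With the processing used above, 23.3% of the tested miRNAs were lower in tMCAO than in sham without overlap. In the same way 18.6% were higher in PostC than in tMCAO. These shares were not computed for the other settings.

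**Figure D5:**
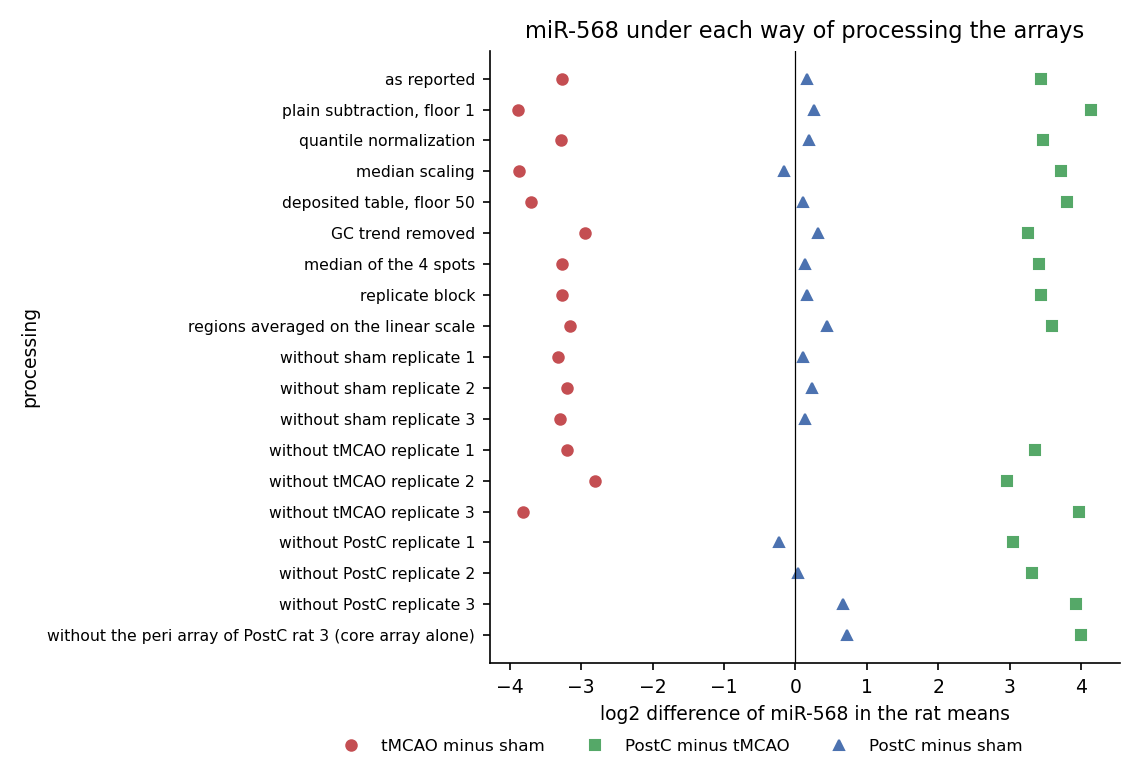
Log2 difference of miR-568 in the rat means (x axis) for tMCAO minus sham, PostC minus tMCAO and PostC minus sham, under each way of processing and with each rat left out (y axis). tMCAO minus sham stays between -3.88 and -2.81, PostC minus tMCAO between 2.97 and 4.14, and PostC minus sham lies on both sides of 0.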

How the data were processed

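Total RNA from core and peri tissue of 9 rats (3 sham, 3 tMCAO, 3 PostC) was hybridised to 18 single-colour Cy5 miRNA arrays. The paper names Trizol and the labels name miRNeasy for the extraction. The authors deposited 1 file per array with the median pixel intensity of each of 3968 spots, which are raw scanner values, and 1 table of intensities after their own background subtraction and locally weighted (LOWESS) regression, on a linear scale. Each of its 18 columns was matched to 1 sample through its name, and 0 were left over.

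The background of the raw spots was corrected with normexp (offset 50, all spots), and log2 values of the miRNA spots were normalized by cyclic loess over the 18 arrays, with the 924 control spots left out. The 4 spots of a probe were averaged. Of the 761 probes, the 532 with detection on 3 or more arrays entered the tests, with a detection limit per array of 3 scaled median absolute deviations over the median of 612 empty spots. The offset shrinks differences of dim spots, and the normalization makes every difference relative to the other miRNAs. Levels of different probes are not compared. The number of arrays limits the precision, and array intensities carry no counting error.

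The rat was the replicate, and core and peri were paired within the rat. Region differences were tested with limma 3.58.1 (R 4.3.3; eBayes with a variance trend, Benjamini-Hochberg adjustment at 0.05), which was tested on simulated data. The p-values measure the spread between rats, which in limma was pooled over the 3 groups in every region test. Each standard error of an untested difference comes from the SDs of both groups. miR-568, the lists and the tests were chosen with earlier results of these data known. The miRNAs named are miR-568, the 5 most alike to it, the 2 with the next lowest tMCAO minus sham difference and those sharing its seed. Also named are the 3 with the longest shared run, the 5 others of lowest GC content and cell type miRNAs. The 4 that passed a region test and miR-210-3p were named after their values were seen. Alternatives were plain background subtraction (floor 1), quantile normalization, median scaling, the deposited table (floor 50), removal of the GC trend, the median of the spots, other filters, no variance trend, a block for the replicate number, no pairing, averaging regions on the linear scale, the methods' t-test, detection against the dimmest 25% of spots, and leaving out each rat. Leaving out the peri array of PostC rat 3, and each array in turn by region, was added after seeing the data. Figures were drawn with matplotlib 3.10.9, and sequences were compared in Python 3.11.15 with pandas 2.3.3 and numpy 2.4.6. Genomic positions are not given, as no rat genome was at hand.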

Additional observations from a re-analysis of the deposited data

How the results depend on the processing

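tMCAO minus sham of miR-568 in the rat means was -3.27 and lay between -3.81 and -2.81 when each rat was left out and between -3.88 and -2.94 under the other settings. PostC minus tMCAO, 3.43, lay between 2.97 and 3.97 and between 3.26 and 4.14. PostC minus sham, 0.16, had no settled sign: it lay between -0.23 and 0.66, the lowest without PostC rat 1, and between -0.16 and 0.72. In peri, leaving out the array of PostC rat 3 moved PostC minus tMCAO from 2.33 to 3.35 and PostC minus sham from -0.71 to 0.31.

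Core minus peri over all 9 rats changed sign, to 0.19 with median scaling, 0.0104 with the deposited table and 0.0036 with the median of the spots, and it ran from -0.35 without PostC rat 3 to 0.28 without PostC rat 2. The region difference for tMCAO was 0.55 with median scaling and between -1.13 and -0.08 with each sham or tMCAO rat left out. That for PostC lay between 0.70 and 2.59. The adjusted p of miR-568 did not pass in any region test under any of these settings, and the causes were not tested. The count of miRNAs that differed between regions over all 9 rats was 4, and it was 1 among miRNAs detected on all arrays, 8 without the replicate block of core and peri by rat, and 0 to 6 with each rat left out, with 0 without sham rat 1, tMCAO rat 2, tMCAO rat 3 or PostC rat 1. For the region difference of tMCAO it was 0, also with each sham or tMCAO rat left out, and 1 with the deposited table. For that of PostC it was 0, 10 without PostC rat 2 and 2 without PostC rat 3, and 0 without PostC rat 1 or any sham rat. In each of these comparisons only rats of the groups compared were left out. The methods' t-test passed none after adjustment and 49, 85 and 23 before it, for sham, tMCAO and PostC.

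Core and peri of a rat come from the same animal and were paired. Equal rat numbers in different groups mark different animals, and their deviations correlated between -0.405 and 0.227. With the number as a replicate block the differences of miR-568 were -3.27, 3.43 and 0.16, as without it. A block for slide or scan was not run, since the files give neither, and miR-568 was not among the miRNAs detected on all arrays. With detection against the dimmest 25% of spots, miR-568 was detected on 18 of 18 arrays in place of 16. Signal near background limits the tMCAO values.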

Other observations

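The last 5 bases of miR-568 were also found in 4 of the 5 miRNAs most alike to it, a run that was noticed after the values had been seen and was not tested. It is shown in capitals.
miR-568: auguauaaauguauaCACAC
miR-210-5p: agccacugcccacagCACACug
miR-3574: ucagccgcuguCACACgcacag
miR-3591: aacaccauuguCACACucca
miR-758-5p: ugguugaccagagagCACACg
Of the 761 probe targets on the array 27 held this run (3.55%), as did 24 of the 532 tested (4.51%). Besides miR-568, 18 of the other 23 tested miRNAs that held it were lower and 5 higher in tMCAO than in sham rats, with a median of -0.23, where 279 of all 532 were lower and the median was -0.02. In PostC minus tMCAO 18 were higher and 5 lower, with a median of 0.51, where 275 of all 532 were higher and the median was 0.02. In PostC minus sham 20 were higher and 3 lower, with a median of 0.34, where 298 of all 532 were higher and the median was 0.04. On the peri array of PostC rat 3, 19 of the 23 were lower than the mean of the other PostC peri arrays, with a median of -0.95, where 268 of all 532 tested miRNAs were lower. These 23 include 4 that were chosen for their likeness to miR-568, which fixed their directions. Without them 14 of 19 were lower in tMCAO minus sham, with a median of -0.17, 14 were higher in PostC minus tMCAO, with a median of 0.23, 16 were higher in PostC minus sham, with a median of 0.30, and 15 were lower on the peri array of PostC rat 3, with a median of -0.68. The list without these 4 was formed after seeing the data.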
